A study of Mus musculus with 10 samples.

Results

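Mouse neurons treated with an antisense oligonucleotide (ASO) against the small nucleolar RNA Snord101 were compared with neurons given a non-targeting control ASO, over every position of the 45S pre-rRNA. The members are the 4 libraries of this comparison, 2 per treatment, out of 10 libraries in the series, and all 13400 positions of the 45S were used. The other libraries are 4 from the same kind of neurons, 2 with an ASO against Snord89 and 2 with its own non-targeting controls, and 2 from untreated embryonic stem cells (ESCs). All neurons came from ESCs in which doxycycline at 1 ug/mL switched on Ngn2, a neurogenic transcription factor, so controls and treated cells share the transgene, the inducer and the culture. The ASOs were given at 10 uM without a transfection reagent, and cells were collected for RNA after 72 to 96 hours. The labels call the libraries of a group biological replicates without saying whether they came from separate differentiations, so p-values measure the spread between these libraries. Levels of neuronal markers and of Snord101 itself were not analysed here, since the tables hold pre-rRNA positions, so both the cell type and the loss of Snord101 rest on the labels.

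Box C/D small nucleolar RNAs, the class to which Snord101 belongs, pair with a short stretch of target RNA and bring the methyltransferase fibrillarin to one ribose in it. The methyl group is placed on the 2′ oxygen of that ribose. Ribosomal RNA is the main target, and the 18S, 5.8S and 28S rRNAs of the cytoplasmic ribosome are all cut out of the 45S precursor. The external and internal transcribed spacers (ETS and ITS) between and around them are removed on the way. RiboMeth-seq reads these methyl groups as gaps. RNA is broken by alkaline hydrolysis, a methylated ribose protects the bond beside it, and few sequenced fragments end there.

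The Snord101 ASO is a gapmer, with chemically modified wings of 5 nucleotides around a DNA gap of 10 nucleotides. A gapmer acts by recruiting RNase H, which cuts the RNA strand paired with the gap. It is shown because it defines the treatment, with its RNA complement below it, which is the stretch of Snord101 it was designed to meet. Both run 5′ to 3′, and capitals mark the gap and the bases that pair with it.
Snord101 ASO: gggtaTCCGACAATTcaagt
RNA complement: acuugAAUUGUCGGAuaccc
The sequence of the control ASO was not used here.

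Between 98619587 and 143176321 read ends lay on the 45S in the 4 libraries, and between 79070492 and 94428078 in the 4 libraries of the Snord89 set. Both knockdown libraries resembled each other more (Pearson's r of the score across positions 0.970) than both controls did (0.926), and control B was closer to knockdown A (0.949) than to control A. Control A correlated with the knockdown libraries at 0.883 and 0.892, the lowest values among these 4 libraries. At 45S 5774 in 18S it had 2283 ends per 1000000 ends on the 45S (EPM), against 924 in control B, 751 in knockdown A and 916 in knockdown B.

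One position of 28S lost its protection. At 45S 11405, which lies 3293 nucleotides into the 28S segment, control A had 744 ends and control B 1332, whereas knockdown A had 76201 and knockdown B 52968. In EPM these were 5.43 and 9.30 in the controls against 570 and 537 in the knockdown, or 7.37 ± 2.74 against 554 ± 23.3 (mean ± SD, n = 2 each). The groups lay far apart, 75.2-fold in the mean, and each knockdown library was close to the other. Ends were also set against the flanking mean, a mean over the 12 surrounding positions in which nearer ones weigh more. That ratio went from 0.0160 and 0.0246 to 1.31 and 1.30. A ratio of 1 means as many ends as the neighbours have, so the position went from nearly none to slightly more than its neighbours. The score, 1 minus this ratio and not below 0, was 0.980 ± 0.00614 in the controls and reached its floor of 0 under the Snord101 ASO in both libraries (SD, n = 2). In edgeR's quasi-likelihood test with the flanking mean as offset, the log2 change in relative ends, knockdown over control, was 6.01 (SE 0.23, adjusted p = 0.00476 over 12997 positions). By the ends alone, scaled to library size by edgeR's TMM factors, it was 6.21 (SE 0.27, edgeR adjusted p = 5.8e-04).

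The gap at 11405 was 1 nucleotide wide. Its 6 neighbours on each side held 214 to 439 EPM in control A, 235 to 512 in control B, 264 to 531 in knockdown A and 259 to 530 in knockdown B. In both controls 11405 was the lowest of these 13 positions, and in both knockdown libraries it was the highest. None of the 12 neighbours passed. Their log2 changes were all below 0, from -0.43 to -0.07 with a median of -0.14 (lowest edgeR adjusted p = 0.0942). The ends regained at 11405 enter the flanking means of these neighbours. With 11405 left out of those means, a choice made after the values were seen, the log2 changes ran from -0.25 to 0.10 with a median of 0.04, and 4 of 12 were below 0 (lowest edgeR adjusted p = 0.233).

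**Figure D1:**
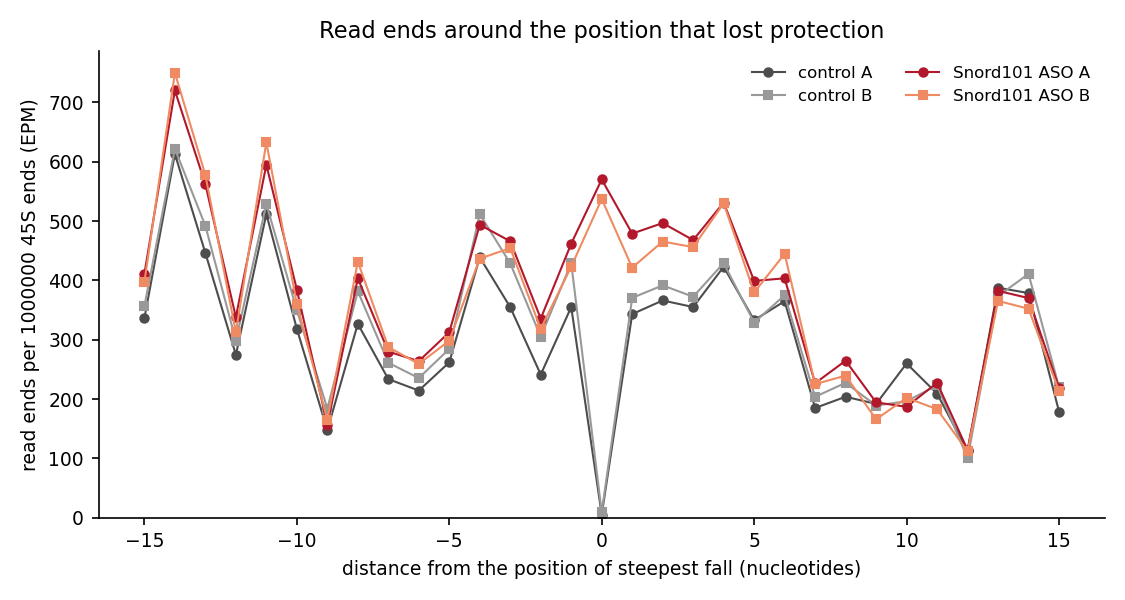
Read ends per 1000000 45S ends (EPM, vertical axis) at 45S 11405 and the 15 positions on each side (horizontal axis, distance in nucleotides), 1 line per library. The controls drop to 5.43 and 9.30 at distance 0, where the Snord101 ASO libraries reach 570 and 537, and all 4 lines run close together at the other positions.

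Within 28S the position moved from among the most protected to among the less protected. Of 4725 positions of 28S, 31 had a lower ratio of ends to flanking mean in control A and 33 in control B. In knockdown A 3739 positions were lower and in knockdown B 3713, which places it at the 79.1 and 78.6 percentile. In the Snord89 set it stayed near the bottom in all 4 libraries, with 19 and 22 positions lower in the controls and 26 and 29 in the Snord89 knockdown. There it had 4.42 and 4.69 EPM in the controls against 6.02 and 9.73 in the knockdown, which do not overlap but did not pass (log2 change 0.61, edgeR adjusted p = 0.472). The change under the Snord101 ASO exceeded that under the Snord89 ASO by 5.39 on the log2 scale (SE 0.37, edgeR adjusted p = 0.00186 for the contrast over 12928 positions). In ESCs, where the tables count 5′ ends alone and the score is therefore a different measure, it was 0.972 ± 0.00136 (SD, n = 2).

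Position 11405 had been singled out by a rule on the same libraries, the one with the steepest fall in score out of 141 whose score reached 0.9 in each control and whose flanking count reached 100. The next, 45S 7098 and 45S 7099 in ITS2, were lower by 0.129 and 0.127. The call at 11405 needs both knockdown libraries: without knockdown A the log2 change was 6.001 (edgeR adjusted p = 0.719), and without knockdown B it was 6.01 (edgeR adjusted p = 0.548). These libraries are bulk RNA, so a change in every cell and a change in most cells cannot be told apart.

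To ask whether other protected positions moved, a list was drawn from libraries outside the comparison. It holds the 133 positions whose score reached 0.9 in each control of the Snord89 set, with a flanking count of at least 100. Of these, 68 lie in 28S, 38 in 18S, 5 in 5.8S and 22 in the spacers. At 25 of the 133 a single neighbour gave over 50% of the flanking sum, so a high score there can reflect a nearby peak. Without them 108 remain, with 60 in 28S, 38 in 18S and 1 in 5.8S, and the same 2 positions were lower by 0.1. The median score of the list was 0.984 in control A, 0.983 in control B, 0.984 in knockdown A and 0.985 in knockdown B. The list was chosen near the upper end of the score, so its median has little room to move. A mean score lower by at least 0.1 without overlap between the groups was found at 2 of the 133. Over all 12997 tested positions the share was 11.0%, and with a flanking count of at least 100 it was 10.6%. Near the upper end of the score a fall of 0.1 takes a larger fold change in ends than at lower scores. The count on the list and these shares are therefore not on a like scale. A score higher by as much was found at 0 of the 133, but only 6 had a control mean low enough to allow it, so nothing is read from that count beside the 4.61% and 3.47% of those positions that were higher. The median difference of the list was 0.00075. Differences of any size without overlap went upward at 36 positions of the list and downward at 17, and at 22 and 16 of the 108 without the one-neighbour positions, beside 10.2% upward and 19.1% downward over all tested positions. With a flanking count of at least 100 these shares were 10.3% and 20.7%.

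Position 11405 was one of these 2. The other was 45S 9459 in 28S, with scores of 0.736 and 0.784 in the controls against 0.703 and 0.614 in the knockdown. The groups did not overlap, but the difference of -0.102 did not pass (log2 change 0.51, edgeR adjusted p = 0.280). With control B or knockdown B left out, or with a window of 2 positions, the count was 1. The count depends on the list: with a list score of at least 0.75 in place of 0.9 it was 24 of 269 (8.92%), closer to the 10.6% over all positions with a flanking count of at least 100. With a list from ESCs it was 15 of 286 (5.24%), and 18 of those 286 were higher by as much. The members next in size were lower by 0.0255 to 0.0346, at 45S 10129, 45S 8787, 45S 10465, 45S 644 and 45S 5857, and none of these 5 passed. At 45S 5857 in 18S, for instance, the scores were 0.927 and 0.920 in the controls against 0.908 and 0.887 in the knockdown (edgeR adjusted p = 0.405).

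One member of the list passed the test with fewer ends. At 45S 8119, near the start of 28S, the scores were 0.881 and 0.855 in the controls against 0.965 and 0.955 in the knockdown, or 0.868 ± 0.0190 against 0.960 ± 0.00659 (SD, n = 2 each). It had 139 and 186 EPM in the controls against 59.2 and 85.0 in the knockdown, and its ends relative to the flanks fell (log2 change -1.73, SE 0.15, edgeR adjusted p = 0.0294). They fell under the Snord89 ASO too, where it had 35.5 and 30.3 EPM in the controls against 17.8 and 19.6 (log2 change -1.15, edgeR adjusted p = 0.00253). It lies 3 nucleotides before 45S 8122, the position with the most ends in 28S, which enters its flanking mean, and it is one of the 25 positions with a single dominant neighbour. By its own ends alone the difference at 8119 did not pass in the Snord101 set (log2 -1.20, edgeR adjusted p = 0.0928).

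The list holds 15 other protected positions within 250 nucleotides of 11405, 13 of them downstream, and none of these passed. Over all tested positions 0.369% passed, so the absence of a call among 15 is not read as a result. The log2 changes of these 15 ranged from -0.68 to 0.21. The nearest on each side were 45S 11351, with a score of 0.768 ± 0.00738 in the controls against 0.768 ± 0.0106 in the knockdown, and 45S 11479, with 0.947 ± 0.00881 and 0.946 ± 0.000138 (SD, n = 2 each).

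**Figure D2:**
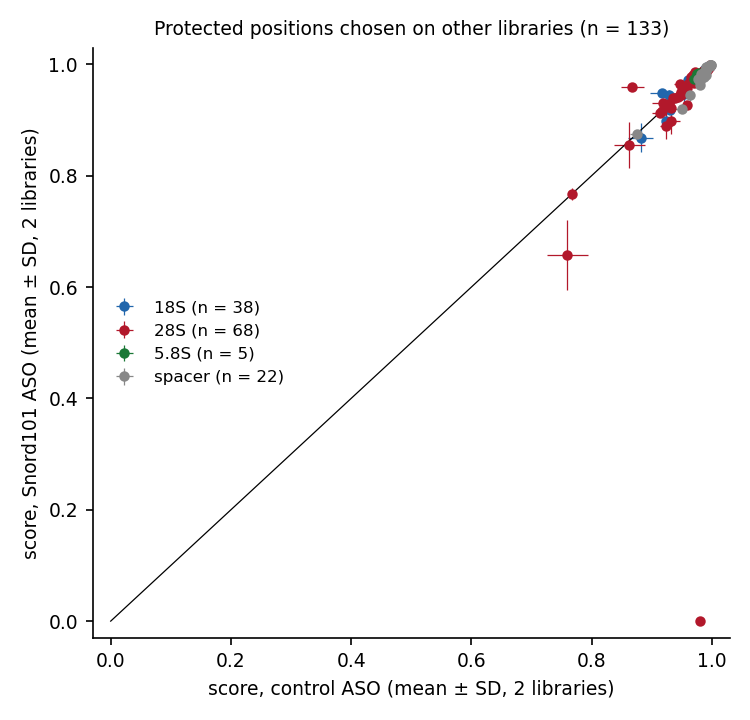
Mean score of each of the 133 listed positions in the controls (horizontal axis) and in the Snord101 ASO libraries (vertical axis), with SD over 2 libraries as bars, coloured by segment, and the line of equal scores. Most points lie on the line near 1, 45S 11405 lies at 0.980 and 0, and 45S 9459 lies below the line at 0.760 and 0.658.

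Over the whole 45S, 48 of 12997 tested positions passed an adjusted p of 0.05 in edgeR's quasi-likelihood test, which is 0.369%. At 12 positions (0.0923%) the knockdown had more ends relative to the flanking mean, and at 36 (0.277%) it had fewer. With the median of the flanking counts as offset in place of the weighted mean, the split was 2 and 37, and by own ends it was 2 and 49. The split was the opposite in DESeq2, with 372 of more and 274 of fewer ends, and with 4 neuron groups in one fit, with 279 and 181. At an unadjusted p under 0.05 there were 1660. By segment there were 38 among 4725 tested positions of 28S, 8 among 3975 of the 5′ ETS and 2 among 1857 of 18S. There were 0 among 1004 of ITS1, 1070 of ITS2, 173 of 5.8S and 193 of the 3′ ETS, and at the overall share the last 2 segments are too short for a count of 0 to be read. Calls could lie side by side: 22 of the 48 were within 6 nucleotides of another call, 10 with more ends and 12 with fewer. A strong position enters the flanking means of its neighbours, so a loss of ends there raises their ratios. Yet some neighbouring calls both had fewer ends. By own ends the log2 values were -1.93 and -2.44 at 45S 8955 and 45S 8956, and -2.39 and -2.20 at 45S 11032 and 45S 11033. Why calls lay together was not tested.

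**Figure D3:**
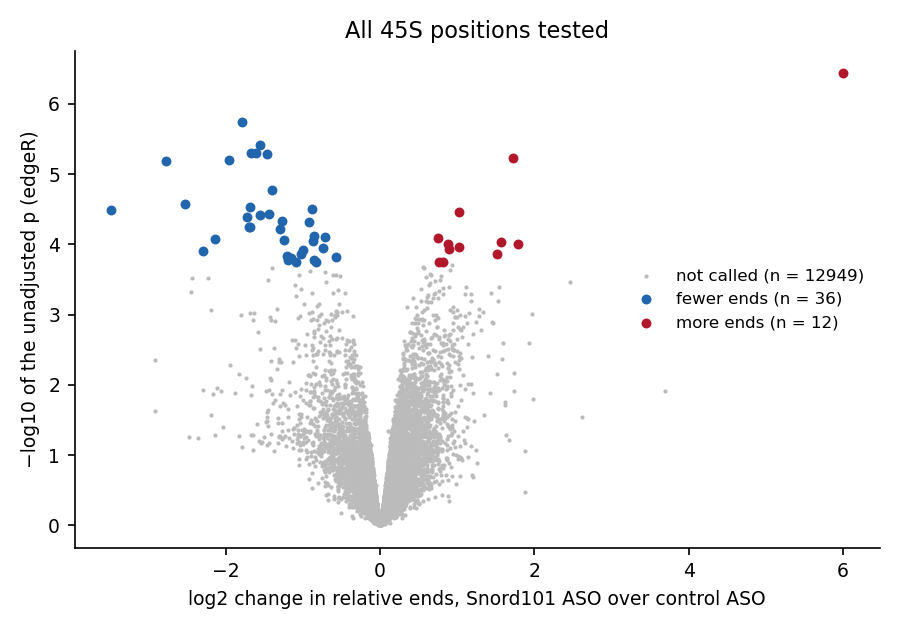
Log2 change in relative ends, Snord101 ASO over control ASO (horizontal axis) and −log10 of the unadjusted edgeR p (vertical axis) for 12997 positions, with 36 called positions of fewer ends in blue and 12 of more ends in red. 45S 11405 lies alone at 6.01, and the other red points lie at or below 1.79.

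The number of calls rests on single libraries. Without knockdown A 0 positions passed in edgeR's test (747 at an unadjusted p under 0.05) and without knockdown B 0 passed (552 at that level). Without control A there were 838 (437 with more and 401 with fewer ends), without control B 3315 (2196 and 1119), and all 48 were among the calls in both cases.

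The 36 positions with fewer relative ends were mostly sites where many fragments had ended. At 34 of the 36 the controls had more ends than the flanking mean in both libraries, at 28 at least 2 times as many. The 36 were called against these same controls, so high control ratios follow in part from the choice. The same shares over all positions were not counted. Their score was 0 in both controls at 34, where it can rise only once the ends drop below the flanking mean. At 45S 681 in the 5′ ETS, for instance, it was 0.196 and 0.225 in the knockdown, whereas at 45S 8918 it stayed at 0. The median ratio of ends to flanking mean was 3.39 and 3.02 in the controls against 1.34 and 1.38 in the knockdown, so the medians came down and stayed above 1. By their own ends all 36 had a lower level in the knockdown, and 26 of them passed that test. Own ends are part of the ratio on which the 36 were called, so this too follows in part from the choice.

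By log2 change the largest of these was 45S 8918 in 28S. It had 475 and 249 EPM in the controls against 29.6 and 26.9 in the knockdown, or 362 ± 160 against 28.3 ± 1.92 (SD, n = 2 each). Its ratio to the flanking mean fell from 19.1 and 10.4 to 1.38 and 1.25 (log2 change -3.49, SE 0.30, edgeR adjusted p = 0.0288). The controls differed widely from each other, yet both lay far above both knockdown libraries. The Snord89 ASO lowered this position as well, from 99.0 and 177.8 to 45.4 and 36.3 EPM (log2 change -1.60, edgeR adjusted p = 0.0346).

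At 45S 5246 in 18S, 245 and 170 EPM became 29.4 and 34.4 (log2 change -2.52, edgeR adjusted p = 0.0288). At 45S 11048 in 28S, control A had 926 EPM and control B 261.5, while the knockdown had 67.4 and 75.7 (log2 change -2.14, edgeR adjusted p = 0.0395). Control A is the extreme library there, and without it the log2 change was -1.77. At 45S 10585 the controls had 1219 and 922 and the knockdown 170.5 and 200.1 (log2 change -1.96, edgeR adjusted p = 0.00925). Without control A the log2 changes at 10585, 5246 and 8918 were -1.82, -2.24 and -2.98.

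At 45S 8208 in 28S the libraries of each group lay close together. It had 794 and 762 EPM in the controls against 206 and 205 in the knockdown, a 3.79-fold difference against an SD of 22.2 in the controls and 0.955 in the knockdown (log2 change -1.79, SE 0.09, edgeR adjusted p = 0.00925). In the Snord89 set the same position had 619 and 790 in the controls against 259 and 257 in the knockdown (log2 change -1.43, edgeR adjusted p = 0.0145). The other positions named by rule, 45S 8408, 45S 1056, 45S 8841 and 45S 8838, had log2 changes from -1.71 to -1.68. Among them 45S 1056 lies in the 5′ ETS, and its 18.5 and 23.5 EPM became 4.47 and 6.13.

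Most of these changes had the same direction under the Snord89 ASO, whose libraries and controls are separate. Of the 48 calls 46 had the same sign there, 35 of 36 with fewer ends and 11 of 12 with more. Over all 12928 positions tested in both comparisons 61.6% had the same sign, 58.9% of those with fewer ends and 63.4% of those with more. The Snord89 comparison called 0.262% of its positions, and 18 of the 48 were among them. The median ratios of the 36 positions were 1.81 and 2.10 in the Snord89-set controls and 1.24 and 1.22 in the Snord89 knockdown. Those control medians were lower than in the Snord101-set controls. The 36 were called on the Snord101 set, so this difference between the sets follows in part from the choice. The difference between the ASOs passed at 6 of the 48.

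**Figure D4:**
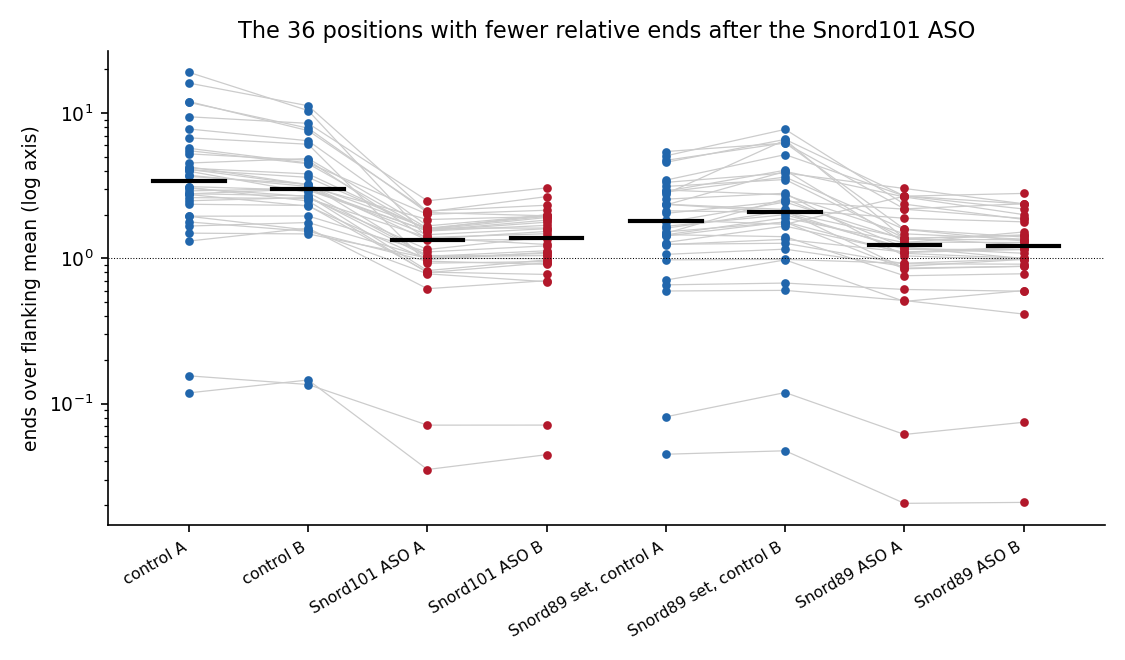
Ratio of ends to flanking mean (log axis) at the 36 positions called with fewer ends, by library, with 1 line per position within each set and bars at the medians. The medians drop from 3.39 and 3.02 to 1.34 and 1.38 in the Snord101 set and from 1.81 and 2.10 to 1.24 and 1.22 in the Snord89 set, and the points below 1 in every library are 45S 8119 and 45S 10299.

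Peaks of ends were therefore counted on a list from other libraries, a choice made after these values were seen. Of 297 positions with at least 2 times the flanking mean in both Snord89-set controls, 144 (48.5%) had a lower ratio in both Snord101 knockdown libraries than in both controls, and 50 (16.8%) a higher one. Over the 9429 positions with a flanking count of at least 100, 19.2% were lower and 32.4% higher. Without control A 159 of the 297 were lower and 87 higher, beside 35.0% and 39.3% of all positions.

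The 12 positions with more relative ends rested less on their own ends, 11405 apart. By own ends 9 of the 12 changed in the same direction, and 1 of them, 11405, passed. At 45S 8298 they were 81.1 and 91.0 EPM in the controls against 105 and 122 in the knockdown. This difference did not pass by own ends (log2 0.37, edgeR adjusted p = 0.380). At 10 of the 12 both knockdown libraries had the lower flanking means, but so they did at 26 of the 36 with fewer ends. The share over all positions was not counted. At 45S 698 in the 5′ ETS the ends hardly differed, with 2.41 and 2.85 EPM in the controls against 2.61 and 3.14 in the knockdown, while its flanking mean was 3.13-fold lower in the knockdown. Its neighbour 45S 697 had 81.4 and 119.2 EPM in the controls against 19.8 and 32.7 in the knockdown. The log2 change of 1.79 at 698 (edgeR adjusted p = 0.0405) was 0.10 by own ends (edgeR adjusted p = 0.885). At 45S 701, 45S 5248, 45S 8294, 45S 8295, 45S 10513, 45S 10517 and 45S 10586 the log2 changes of 0.81 to 1.56 became -0.32 to 0.25 by own ends, with no call. At 45S 10586 and 45S 5248 the strong neighbours 45S 10585 and 45S 5246, described above, enter the flanking mean.

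The test on own ends needs no neighbours, but it compares each position with the whole library. It called 51 of 12997 positions (0.392%), 49 with fewer ends (0.377%) and 2 with more (0.0154%), and 27 of them were among the 48. Besides 11405, the position with more ends was 45S 8122, the peak of ends near the start of the 28S segment. It had 11788 and 12971 EPM in the controls against 17077 and 19532 in the knockdown (log2 0.54, SE 0.07, edgeR adjusted p = 0.0292). Relative to its flanks it did not pass (log2 change 0.20, edgeR adjusted p = 0.306). The peak at the other end of 28S, 45S 12835, had 2021 and 2388 in the controls against 2895 and 3083 in the knockdown, without passing (edgeR adjusted p = 0.102). At 45S 4006, beside the start of 18S, there were 643 and 837 against 1053 and 1507, also without passing (edgeR adjusted p = 0.159). At 45S 6876 and 45S 6877, the highest positions of 5.8S, the groups did not overlap and neither passed (edgeR adjusted p = 0.235 and 0.393).

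ITS2, the spacer between 5.8S and 28S, had 4 calls among 1070 tested positions in this test, a share close to that of all positions. All were of fewer ends and in the first part of the spacer, at 45S 7083, 45S 7107, 45S 7108 and 45S 7143. At 45S 7143, the highest position of ITS2, 49.8 and 57.2 EPM fell to 11.7 and 16.7 (log2 -1.94, edgeR adjusted p = 0.0291). At 45S 7107, 21.5 and 26.0 fell to 3.55 and 5.02 (log2 -2.50, edgeR adjusted p = 0.0179). Both knockdown libraries lay well below both controls at each of them. Relative to the weighted flanking mean none of the 4 passed (lowest edgeR adjusted p = 0.0592), and that mean was 1.81- to 2.98-fold lower in the knockdown. Relative to the median of the flanking counts all 4 passed, with log2 changes from -1.54 to -1.46 (edgeR adjusted p from 0.0203 to 0.0437). In the Snord89 set 7143 had 11.6 and 13.3 in the controls against 6.54 and 7.07 in the knockdown (edgeR adjusted p = 0.108 by own ends), and none of the 4 passed there.

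Some positions of a cluster in the 5′ ETS, the leader that is removed first from the precursor, differed between the ASOs. At 45S 681 the ends fell from 70.4 and 93.9 EPM to 16.3 and 21.2 under the Snord101 ASO (log2 change -1.56, edgeR adjusted p = 0.00925). Under the Snord89 ASO they rose from 32.1 and 28.7 to 45.6 and 45.7 (log2 change 0.62, edgeR adjusted p = 0.0249). The difference between the ASOs was -2.19 (SE 0.11, edgeR adjusted p = 3.9e-04). Within the same cluster, 45S 679 fell under both, with log2 changes of -0.86 and -0.89 (edgeR adjusted p = 0.0395 and 0.00939; difference 0.04, edgeR adjusted p = 0.957). At 45S 678, 3 nucleotides upstream of 681, the Snord101 set had 92.6 and 120.4 EPM in the controls against 116.8 and 170.3 in the knockdown, which overlap. Its call (log2 change 1.73, edgeR adjusted p = 0.00925) rested on a flanking mean that was 2.49-fold lower, and by own ends it did not pass (log2 0.41, edgeR adjusted p = 0.462).

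Of the 12928 positions tested for a difference between the ASOs, 9 passed (0.0696%). Of these 5 lay between 45S 678 and 45S 687, and the others were 45S 816, 45S 8841, 45S 9406 and 45S 11405. At 45S 816, also in the 5′ ETS, 6.57 and 3.995 EPM became 0.352 and 0.395 under the Snord101 ASO (log2 change -2.78, edgeR adjusted p = 0.00925), and the Snord89 set had 0.752 and 0.988 against 0.494 and 0.417 (edgeR adjusted p = 0.420). The 8 positions other than 11405 all had scores under 0.9 in both Snord101-set controls.

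Shares of ends by segment compare mature rRNA with spacer. The 18S segment held 29.7% and 31.3% of ends in the controls against 32.7% and 32.4% in the knockdown, and 28S held 65.3% and 63.2% against 62.2% and 61.9%. For both the groups did not overlap, and the log2 ratios of the means were 0.10 and -0.05. ITS2 held 0.156% and 0.118% in the controls against 0.101% and 0.113% in the knockdown (log2 -0.36), also without overlap. Without control A the log2 ratio of ITS2 was -0.14 and that of 28S -0.027. In the Snord89 set the log2 ratio of ITS2 was -0.37. In the 5′ ETS the shares were 0.668% and 0.642% against 0.541% and 0.653%, which overlap, as they did in ITS1, 5.8S and the 3′ ETS. With 2 libraries against 2 an exact permutation test cannot go below a two-sided p of 0.333, and no test was run on these shares.

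**Figure D5:**
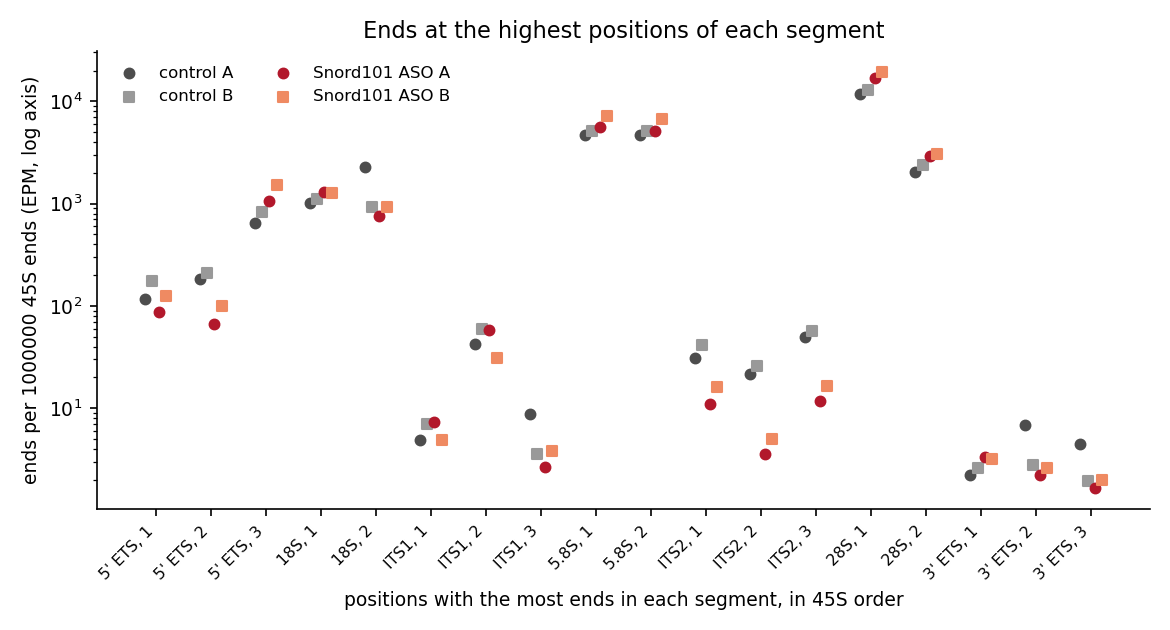
Ends per 1000000 45S ends (EPM, log axis) at the positions with the most ends of each segment, the 2 highest of 18S, 5.8S and 28S and the 3 highest of each spacer, with 1 point per library. The Snord101 ASO libraries lie below the controls at all 3 ITS2 positions and above them at both 28S positions, and control A stands apart at the second 18S position with 2283.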

How the data were processed

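RiboMeth-seq libraries were made from 150 to 250 ng of RNA hydrolysed for 1 to 12 minutes, per the labels' protocols. The authors deposited whole-number counts of read ends and a score per 45S position and library. Per the file headers, 5′ and 3′ ends are added in the neuron tables. The submitters' processing notes name Trim Galore, cutadapt, Bowtie2 and bedtools; versions, settings and reference sequence are not given in the sources used here. The deposited score is a fraction from 0 to 1. Recomputed from the counts with weights from 1.0 for the nearest to 0.5 for the farthest of 6 positions on each side, it was within 1e-06 of the deposited value at 100% of positions in every library used.

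Segment limits were set here from the data, where the rolling median of ends reached 5 per 1000000 ends in the neuron controls: 18S from 4008 to 5864, 5.8S from 6869 to 7041 and 28S from 8112 to 12836. They are approximate. Positions count from 1 as in the tables, and base identities were not used.

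End counts were tested with edgeR 4.0.16 (quasi-likelihood, R 4.3.3), with the log of the flanking mean as offset, a mean flanking count of at least 10, no score minimum, no block, and Benjamini-Hochberg adjustment at 0.05. A minimum on the mean score would leave out a position that goes from full protection to none. The difference between the ASOs was a contrast over 8 neuron libraries. The procedure was tested on simulated data. Named positions are the steepest fall with its 12 neighbours, up to 10 calls per direction by log2 end ratio (no overlap, flanking count of at least 100), list members that passed or moved by 0.1 with the next 5, and the highest positions of each segment. Others were chosen after their values were seen. Members, lists and rules were chosen with earlier results of these data known. Counting error is small at these depths, and PCR copies were not told apart, so precision is set by the spread between libraries. Libraries of one group never agreed within sampling noise (lowest chi-square per degree of freedom 68.3 in the Snord101 set). Alternatives were DESeq2 1.42.0, limma 3.58.1 on log2 values with a pseudocount of 1, other windows, filters and lists, a replicate block, and each library left out.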

Additional observations from a re-analysis of the deposited data

Results flagged for a closer look

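At 9 positions the effect of the Snord101 ASO differed from that of the Snord89 ASO in edgeR's contrast, given here as the Snord101 effect minus the Snord89 effect on the log2 scale, over 12928 positions. At 45S 11405 in 28S it was 5.391 (SE 0.37, edgeR adjusted p = 0.00186). At 45S 678 it was 1.954, at 45S 681 -2.185, at 45S 684 -1.681, at 45S 686 1.116 and at 45S 687 1.282, all within 10 nucleotides of the 5′ ETS. The flanking mean reaches 6 positions to each side, so these positions enter the flanking means of one another, except 678 with 686 and 687. The direction at 45S 686 and 45S 687 depends on the flanks: by own ends the log2 change was -0.89 and -0.82 under the Snord101 ASO and -0.15 and -0.32 under the Snord89 ASO. At 45S 816 in the 5′ ETS it was -2.155, where the knockdown libraries held 47 and 39 ends. At 45S 8841 and 45S 9406 in 28S it was -1.538 and -1.208. In the Snord101 comparison alone 6 of the 9 passed, and 45S 684, 45S 686 and 45S 687 did not (edgeR adjusted p = 0.0731, 0.148 and 0.179).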

How the results depend on the processing

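At 45S 11405 the log2 change was past the threshold in 9 of the 10 other settings that tested it, and without it in limma (6.04, adjusted p = 0.0818). With 1 library left out it ranged from 5.73 to 6.36. The difference between the ASOs there was 5.47 in limma (adjusted p = 0.0503) and 5.05 to 5.83 with 1 library left out, passing except without knockdown B (5.40, edgeR adjusted p = 0.0506). The 48 calls (12 with more ends, 36 with fewer) became 16 (12 and 4) with a mean score of at least 0.5, 18 (13 and 5) with that score in either group, 646 (372 and 274) with DESeq2, 0 with limma (1425 at an unadjusted p under 0.05), 460 (279 and 181) with 4 neuron groups in one fit, 61 (25 and 36) with a window of 2, 39 (2 and 37) with the median of the flanks and 51 (2 and 49) by own ends. With 1 library left out the count ranged from 0 to 3315, with 0 to 2196 of more and 0 to 1119 of fewer ends. A replicate block by letter gave 29 calls (3 and 26), of which 27 were among the 48. The letters were not taken as pairs, since the deviations of the A libraries of both groups were only weakly and negatively correlated across positions (-0.128). With the crossed pairing as a block, added after seeing the data, 374 passed (186 and 188). The 9 differences between the ASOs became 0 with the mean score minimum (91 at an unadjusted p under 0.05 in edgeR), 3 with the score minimum in either group, 3 by own ends, 77 with DESeq2, 1 with limma, 3 with the replicate block, and 2 to 630 with 1 library left out. The 2 listed positions that were lower (of 133) became 24 (of 269) with a list score of 0.75, 15 (of 286) with a list from ESCs, beside 10.6% over all positions with a flanking count of at least 100, 1 with a window of 2, 1 with the replicate block, and 1 to 2 with 1 library left out. The 3′ ETS share had a log2 ratio of -0.16, and 0.37 with segments set at 20 ends per 1000000. With 1 library left out it ranged from -0.43 to 0.19, the 5′ ETS share from -0.28 to -0.0038 and the 18S share from 0.058 to 0.13. By own ends the log2 values at 45S 10513, 45S 10517 and 45S 10586 turned to -0.13, -0.082 and -0.32. At 45S 5876 in ITS1 the log2 change of -0.08 ranged from -0.57 to 0.33 with 1 library left out, turning positive without control B. The cause was not tested where a count moved. A group left with 1 library was assumed to vary like the others, and 2 libraries a group limit every test here.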

Other observations

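At 2 of the 133 listed positions the controls of the Snord101 set scored lower by at least 0.1 than those of the Snord89 set. The list was chosen for a score of at least 0.9 in the latter, so differences in this direction follow in part from the choice, and the values are given as a description. At 45S 9459 the Snord101-set controls scored 0.736 and 0.784 and the Snord89-set controls 0.984 and 0.980, whereas ESCs, by 5′ ends alone, scored 0.997 in the mean. At 45S 11351 the means were 0.768 ± 0.00738 and 0.941 ± 0.00372 (SD, n = 2 each). All of these neurons carried a non-targeting ASO, and the difference between the sets was not tested. In each ESC library 98 of the 133 positions scored at least 0.9.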
